A study of Mus musculus with 24 samples.

Results

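RAW264.7, a mouse macrophage-like line, responds to lipopolysaccharide (LPS), and the question here was whether that response differed between wild-type cells and cells knocked out for Olfml3. The comparison took all 12 RAW264.7 libraries of the 24 libraries in the series. It subtracted the difference between knockout and wild type with PBS from the same difference with LPS, gene by gene, and this quantity is the genotype by LPS interaction. The 4 groups, with 3 libraries each, were wild type with PBS, wild type with LPS at 100 ng/mL for 4 h, knockout with PBS and knockout with LPS under the same conditions. Knockout cells were made with Cas9 and a lentiviral guide RNA against Olfml3 and grown from sorted single cells, and the labels do not say how many clones the libraries represent. The study describes the clones as carrying a disruption on both alleles. Sample titles and library names gave the groups, because the genotype tag contradicts the title in 6 of these 12 libraries. The study calls the libraries of a group biological replicates without saying how the cultures were kept apart, so the p-values measure the spread between these libraries, part of which may be technical.

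LPS binds CD14 and the receptor complex of TLR4 and MD-2 on macrophages. Signalling through MyD88 activates NF-kappaB and MAP kinases and induces cytokines such as TNF and IL-6, while signalling through TRAM and TRIF activates IRF3 and induces interferon-beta. Interferon-beta then acts on the same and neighbouring cells through its receptor and switches on interferon-stimulated genes. OLFML3 is a secreted olfactomedin-domain protein. An interaction above 0 means that a gene rose more or fell less with LPS in the labelled knockout than in wild type, and an interaction below 0 means the reverse. Each interaction is given in log2 units of FPKM + 0.1, where FPKM is fragments per kilobase of exon, scaled to the library's counted fragments.

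The libraries held 11638273 to 16478616 counts. Macrophage markers were present in every library, with a summed level of 1057 to 3110 FPKM over 8 genes, and the sum was lower in the labelled knockout. Of the 8, 4 were called lower and 1 higher with PBS, beside 3.76% and 4.79% of all genes. With LPS 3 were lower and 1 higher, beside 7.60% and 9.73%. Summed markers of B cells, T and NK cells, neutrophils, fibroblasts, epithelium and endothelium were at most 0.52 FPKM, and those of osteoclasts, which RAW264.7 can form, were 6.96 to 33.7 FPKM. The first library labelled knockout with PBS, called O1, stood apart in its FPKM total. It summed to 356156 FPKM, beside 357349 to 367540 in the 6 wild-type libraries and 295256 to 311278 in the other 5 libraries labelled knockout. Results are given with the 12 libraries, and the counts of calls also without O1. These are bulk samples, in which fewer cells that express a gene and less RNA per cell cannot be told apart.

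The targeted gene went against the label. Olfml3 measured 0.19, 0.15 and 0.15 FPKM in wild type with PBS, 0.13, 0.13 and 0.29 in wild type with LPS, 0.65, 1.01 and 1.19 in the labelled knockout with PBS, and 18.9, 18.8 and 18.3 in the labelled knockout with LPS. Wild-type libraries were all at or below 0.29 FPKM, and the groups labelled knockout did not overlap with them. The interaction of Olfml3 was 4.13 (SE 0.33, adjusted p = 0.000283), 3.91 without O1 and 4.14 (adjusted p = 0.000241) by edgeR. The counts do not show which sequence the reads carry, so the cells are called labelled knockout throughout. Gm10964 is annotated in the deposited table on the opposite strand of chromosome 3, 1364 bases from the side of Olfml3 where its transcription starts. It had no count in any wild-type library, stood at 7.08, 6.24 and 9.90 FPKM in the labelled knockout with PBS, and reached 132, 140 and 163 FPKM with LPS. Its interaction was 4.23 (SE 0.21, adjusted p = 1.82e-05), a value that depends on the offset of 0.1 FPKM because wild type had no count, as for every gene at 0 in a group. Neither edgeR nor DESeq2 called it (adjusted p = 0.145 by DESeq2). Whether strand was used in counting is not given in the sources used here, so reads of neighbouring genes on opposite strands may not be told apart.

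The LPS response differed between the genotypes for 521 of 26740 genes (1.95%), at an adjusted p under 0.05 by limma and a difference of at least 1.5-fold. Of these, 242 (0.905%) had a higher and 279 (1.04%) a lower interaction. Without O1 there were 904 of 26538 genes (3.41%), 341 of them higher (1.28%) and 563 lower (2.12%). DESeq2 called 539 (2.01%), 239 higher (0.892%) and 300 lower (1.12%). The limma fits with and without O1 called 504 genes in the same direction. The median interaction over all genes tested was -0.0077, and -0.023 without O1.

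**Figure D1:**
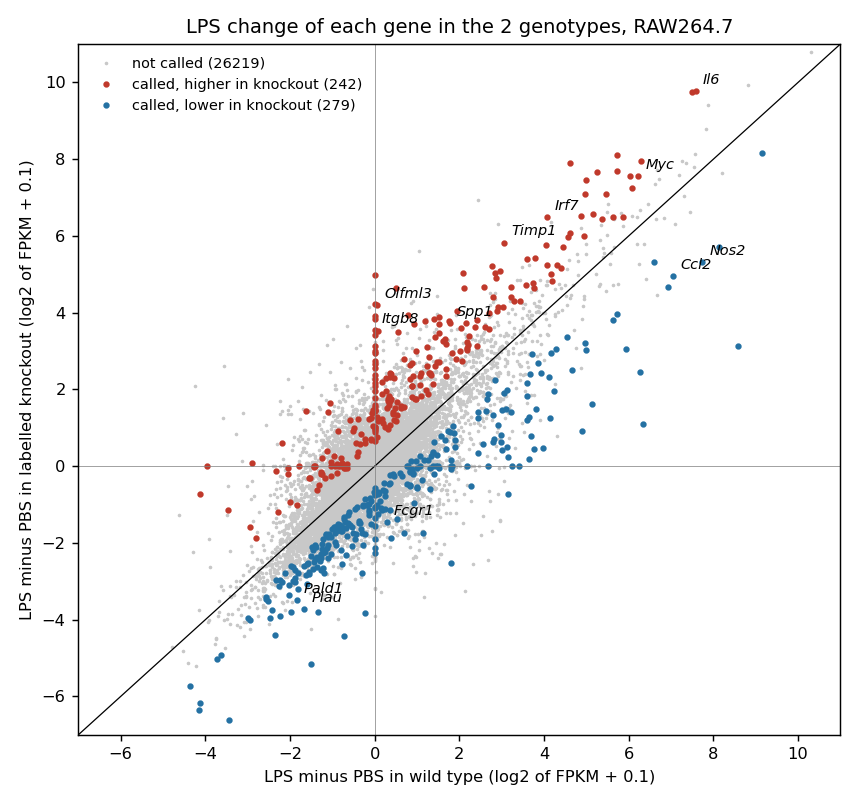
Change with LPS in wild type (x axis) and in the labelled knockout (y axis) for each of the genes tested, both as differences of log2(FPKM + 0.1) between group means of 3 libraries. Points on the diagonal changed alike, the 242 genes called higher lie above the diagonal and the 279 called lower lie below it.

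The single comparisons called more genes. Knockout against wild type gave 2286 genes (8.55%) with PBS, 4.79% higher and 3.76% lower, and 4636 (17.3%) with LPS, 9.73% higher and 7.60% lower. LPS against PBS gave 4899 (18.3%) in wild type, 5.80% higher and 12.5% lower, and 5899 (22.1%) in the labelled knockout, 7.45% higher and 14.6% lower. The genes called for the interaction took several forms. Among the 242 genes with a higher interaction, 111 rose with LPS in both genotypes, 82 rose in the labelled knockout alone, and 35 fell in wild type alone. Among the 279 with a lower interaction, 100 fell in both, 59 fell in the labelled knockout alone, 59 rose in wild type alone and 53 rose in both. Seen as the genotype effect, 125 of the higher genes were above wild type with LPS and not called with PBS, and 56 were below wild type with PBS and not called with LPS. Of the lower genes 154 were below wild type with LPS and not called with PBS, and 57 were above wild type with PBS and not called with LPS. A gene called in one comparison and not in another is not thereby shown to differ, and the interaction itself is the test of that difference.

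Genes that are nearly silent with PBS carry a separate limit. On a log2(FPKM + 0.1) scale an equal fold change gives unequal differences when one genotype starts below 0.1 FPKM, and edgeR on the deposited counts does not use that offset. After the values were seen, the 521 genes were split by the lower of the summed counts of the PBS groups. For 281 genes (2.47% of 11372 tested) both PBS groups had over 50 counts, and edgeR called 270 of them (96.1%) in the same direction. For 240 genes (1.56% of 15368 tested) at least 1 PBS group had 50 or fewer, and edgeR called 32 (13.3%). With at most 3 counts it called 6 of 167. The edgeR filter left 82 of the 521 untested, and these count here as not called. Over all genes it tested, edgeR called 441 of 13639 (3.23%), 1.34% higher and 1.89% lower. Without O1 it called 888 of 13914 (6.38%), 2.32% higher and 4.06% lower. Genes below are therefore given with the result of edgeR where the PBS level was low.

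**Figure D2:**
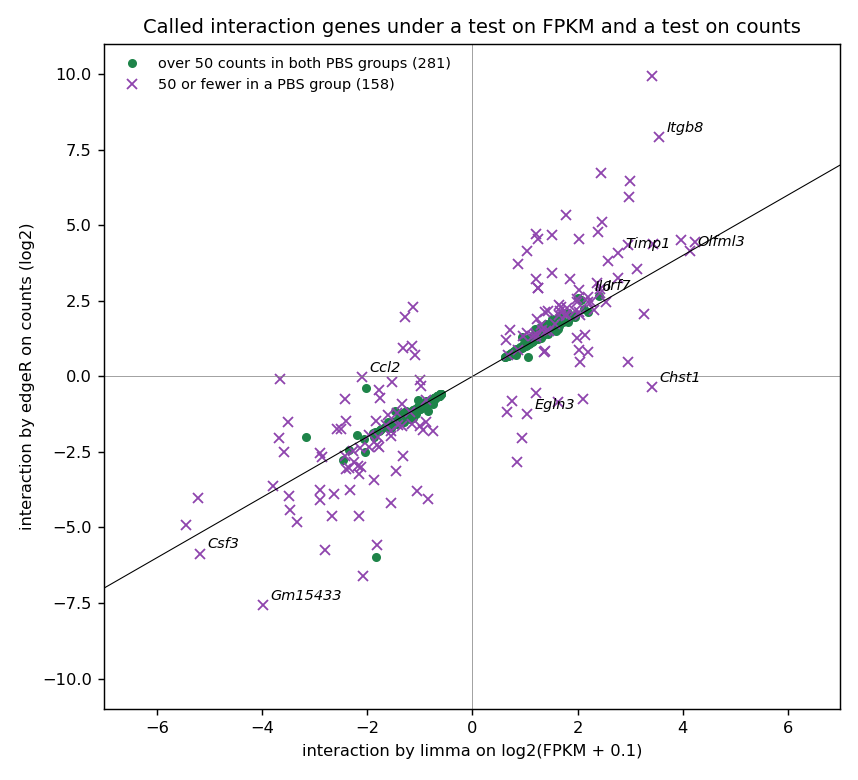
Interaction of the called genes by limma on log2(FPKM + 0.1) (x axis) and by edgeR on counts (y axis, log2), for the 439 called genes that edgeR tested. Green points, with over 50 counts in both PBS groups, follow the diagonal with few exceptions, and purple crosses, with 50 or fewer in a PBS group, spread away from it, with Ccl2 near 0 on the y axis and Chst1 and Egln3 of opposite sign.

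Interferon-stimulated genes encode antiviral effectors and sensors. Of 53 tested, 14 had a higher interaction (edgeR called all 14) and 9 a lower one (edgeR called 3), beside 0.905% and 1.04% of all genes. In all, edgeR called 19 members higher and 3 lower, beside 1.34% and 1.89% of all genes it tested. The median over the 53 was 0.040, and without O1 16 were higher and 9 lower. Before LPS, 29 of the 53 were lower in the labelled knockout and 2 higher, beside 3.76% and 4.79% of all genes. With LPS 30 were lower and 2 higher, beside 7.60% and 9.73% of all genes. With LPS, 50 of the 53 rose in wild type and 48 in the labelled knockout, beside 5.80% and 7.45% of all genes. Genes of the higher group started from a median of 2.90 FPKM in wild type and 0.563 FPKM in the labelled knockout with PBS. Their median genotype effect was -1.69 log2 units with PBS and -0.35 with LPS, a direction that the choice of genes with a higher interaction fixes. Over all 53 genes it was -0.97 with PBS and -0.74 with LPS, and the median rise with LPS was 4.95 log2 units in wild type and 4.97 in the labelled knockout. Genes of the lower group had medians of 0.013 FPKM in wild type and 0.017 FPKM in the labelled knockout with PBS. Their median genotype effect with LPS was -2.01 log2 units. Ifit2, Ifi204 and Ifi47 of this group were expressed with PBS, at means of 1.89, 0.98 and 2.94 FPKM in wild type. In the labelled knockout these means were 3.12, 1.06 and 1.79 FPKM.

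Irf7, the interferon-induced transcription factor that amplifies the type I interferon response, gave the smallest adjusted p of the interferon genes. It measured 5.51, 5.12 and 4.57 FPKM in wild type with PBS, 83.6, 87.4 and 88.8 in wild type with LPS, 0.43, 0.46 and 0.46 in the labelled knockout with PBS, and 49.1, 48.1 and 50.4 in the labelled knockout with LPS. No groups overlapped, and O1 lay with the other 2 libraries of its group. The genotype effect was -3.23 log2 units with PBS and -0.81 with LPS, and the interaction was 2.41 (SE 0.12, adjusted p = 1.24e-05). Rtp4, an interferon-induced transmembrane protein, measured 3.87, 2.7 and 3.28 FPKM in wild type with PBS, 129, 127 and 126 in wild type with LPS, 0.28, 0.12 and 0.23 in the labelled knockout with PBS, and 61.7, 60.1 and 62.8 in the labelled knockout with LPS. It had a deficit with PBS that became smaller with LPS, and its interaction was 2.42 (SE 0.27, adjusted p = 0.00175), and 2.89 (adjusted p = 4.91e-05) by edgeR. Isg15, a ubiquitin-like modifier, measured 2.56, 2.03 and 2.27 FPKM in wild type with PBS, 430.0, 429.7 and 428 in wild type with LPS, 0.52, 0.18 and 0.2 in the labelled knockout with PBS, and 339.7, 309 and 323 in the labelled knockout with LPS. O1 was the highest of its group for Isg15, and the interaction was 2.26 (SE 0.36, adjusted p = 0.0117) with O1 and 2.63 without it. By edgeR it was 2.46 (adjusted p = 0.000397). Ifitm3, which blocks the entry of enveloped viruses, was named after its values were seen. It measured 517, 469 and 465 FPKM in wild type with PBS, 1332, 1372 and 1423 in wild type with LPS, 50.8, 26 and 22.9 in the labelled knockout with PBS, and 416, 396 and 419 in the labelled knockout with LPS, again with O1 nearest to wild type, and its interaction was 2.20 (SE 0.34, adjusted p = 0.0106). Irf9, an interferon regulatory factor, had an interaction of 0.73 (SE 0.15, adjusted p = 0.0485), which passed the threshold narrowly and was lost when any of 9 single libraries was left out (adjusted p up to 0.121).

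Other interferon genes had a lower interaction. Irf1, an interferon- and NF-kappaB-induced factor, measured 2.9, 2.85 and 3 FPKM in wild type with PBS, 24.4, 25.6 and 25.6 in wild type with LPS, 4.31, 3.78 and 3.45 in the labelled knockout with PBS, and 15.7, 13.5 and 15 in the labelled knockout with LPS. It was above wild type in every PBS library, by a margin that was not called, and below it in every LPS library, and it had an interaction of -1.15 (SE 0.13, adjusted p = 0.00214). Among the effectors, Ifit2, Ifi204 and Ifi47 were called lower by both tests (interaction -1.24, -1.76 and -1.13). Rsad2, the antiviral enzyme viperin, measured 0.26, 0.07 and 0.07 FPKM in wild type with PBS, 62.9, 59.1 and 61.3 in wild type with LPS, 0.01, 0.04 and 0 in the labelled knockout with PBS, and 6.22, 5.5 and 6.18 in the labelled knockout with LPS. With LPS the labelled knockout was -3.34 log2 units from wild type, without overlap. Both genotypes had few counts with PBS (24 and 4), and its interaction of -2.42 (SE 0.37, adjusted p = 0.0103) became -0.75 (adjusted p = 0.859) by edgeR. Slfn1 was at 0 FPKM in all 6 PBS libraries and its interaction was -3.33, so the value is set by the level with LPS and the offset, and edgeR did not call it.

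**Figure D3:**
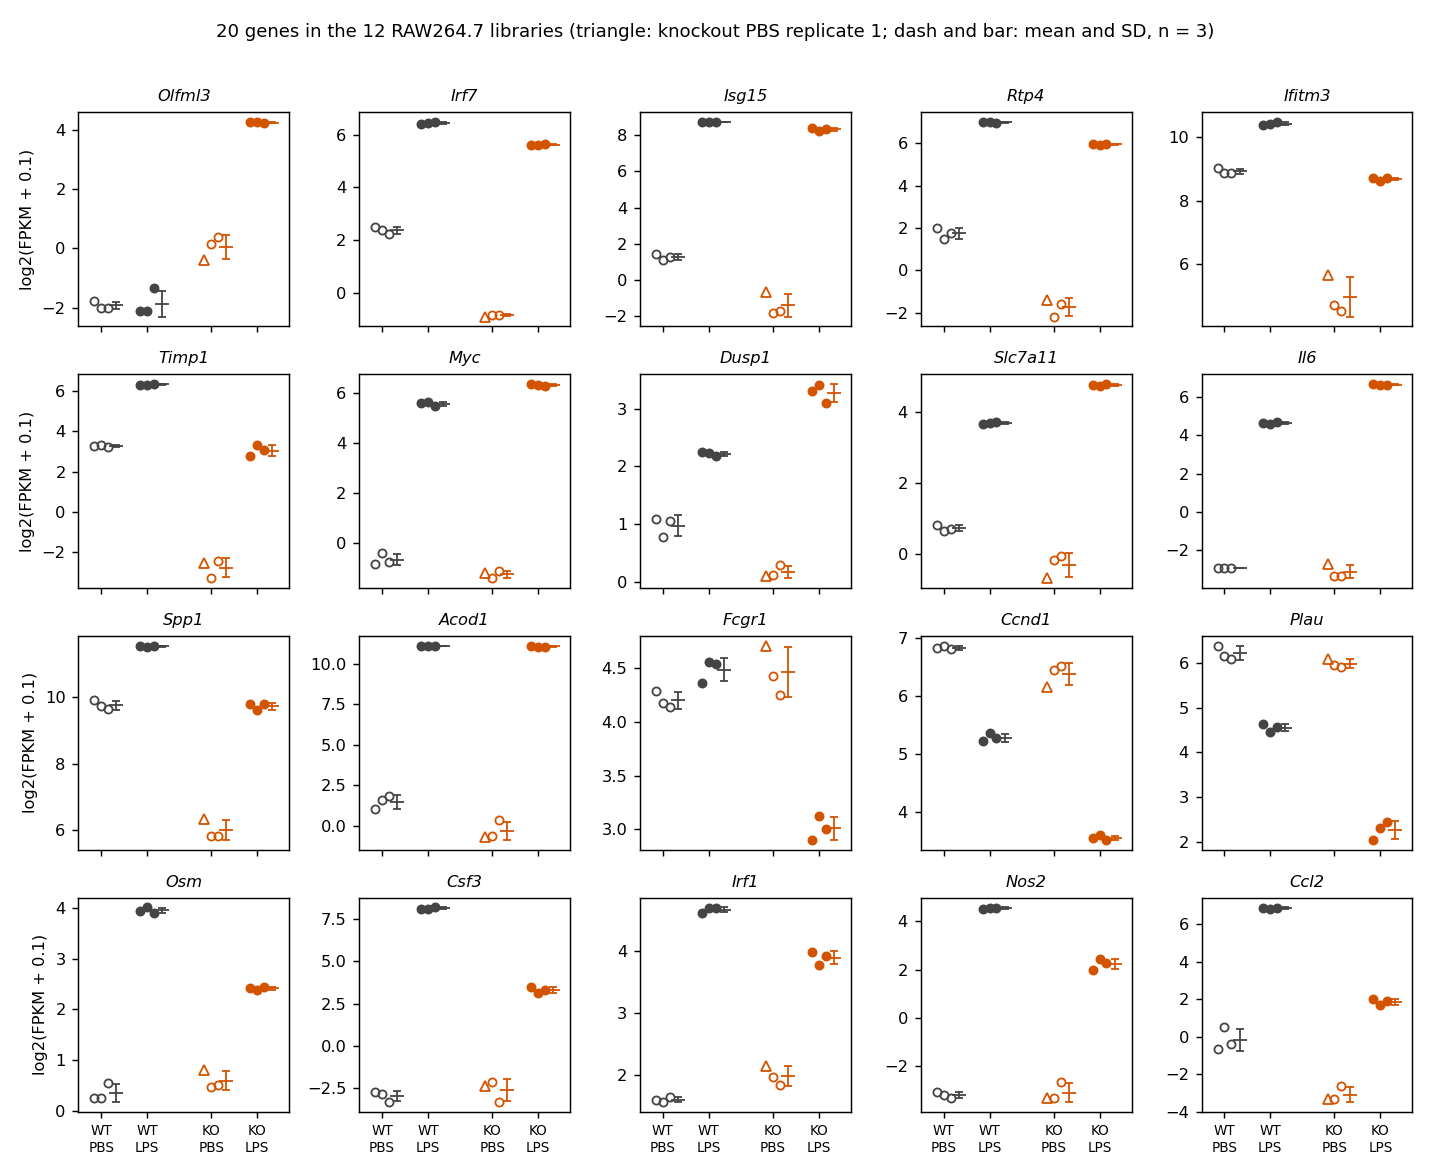
Level of 20 genes in the 12 RAW264.7 libraries, as log2(FPKM + 0.1), by genotype (WT, wild type, grey; KO, labelled knockout, orange) and treatment (open, PBS; filled, LPS). Triangles mark O1, and dashes with bars give the mean and SD of 3 libraries. Irf7, Isg15 and Rtp4 start lower in the labelled knockout and approach wild type with LPS. Fcgr1 and Plau part from wild type with LPS, and Ccnd1, already lower with PBS, stands further below wild type with LPS.

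Promoters of called genes were searched for motifs of the factors above, in the 250 bases before to 50 after each start of the RefSeq genes on GRCm38.p6, on both strands. The interferon-stimulated response element core was GAAA, any 2 bases and GAAA. The kappaB site was GGG, any 2 bases and TTTCC, or GGAAA, any 1 base and TCCC, and the AP-1 site was TGANTCA. A promoter was found for 147 of the 242 higher and 178 of the 279 lower genes, and for 13876 of all 26740. The response element core occurred in 12 higher genes (8.16%) and 12 lower genes (6.74%), beside 3.82% of all. The kappaB site occurred in 4.76% and 3.37%, beside 2.05%, and the AP-1 site in 14.97% and 14.61%, beside 7.38%. A gene was counted if any of its promoters held the motif. More than 1 promoter was searched for 92 of the called genes and for 2615 of the 13876. The shares were not adjusted for that, and a gene with more promoters had more sequence searched. Where both PBS groups had over 50 counts, the response element core occurred in 9 of 75 higher genes, 5 of 127 lower genes and 301 of all 8428. In the same sets the kappaB site occurred in 5, 5 and 175 genes, and the AP-1 site in 9, 17 and 479. These are counts of letters and not of bound sites. The following stretches show the matches, in capitals, for one gene of each direction with a response element core and for Il6 with a kappaB site, each read in the direction of transcription.
Isg15, chr4:156200871-156200900, minus strand: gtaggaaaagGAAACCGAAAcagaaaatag
Rsad2, chr12:26456553-26456582, minus strand: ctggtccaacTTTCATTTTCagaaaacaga
Il6, chr5:30013060-30013089, plus strand: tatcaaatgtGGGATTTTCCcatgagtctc
The match in Isg15 begins 72 bases before the start site and overlaps 2 further matches of the same core. The matches in Rsad2 and Il6 begin 120 and 44 bases before it, and that in Rsad2 is on the opposite strand. A match of the core thus stands in Isg15, called higher by limma and edgeR, and in Rsad2, whose lower interaction edgeR did not call.

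Cytokines went both ways. Of 23 tested, 3 had a higher interaction (Il6, Il1rn and Tnfsf9) and 5 a lower one (Csf2, Csf3, Il10, Osm and Lif), beside 0.905% and 1.04% of all genes, and the median was 0.14. Without O1, 5 were higher and 5 lower, and by edgeR 2 and 2. Il6, an acute-phase cytokine, measured 0.03, 0.03 and 0.03 FPKM in wild type with PBS, 24.8, 24.2 and 25.4 in wild type with LPS, 0.05, 0 and 0 in the labelled knockout with PBS, and 103, 97.5 and 99.8 in the labelled knockout with LPS. PBS levels overlapped between genotypes and LPS levels did not, the labelled knockout standing 2.01 log2 units above wild type. Its interaction was 2.19 (SE 0.20, adjusted p = 0.000606). With 3 and 2 counts in the PBS groups, edgeR gave 2.63 (adjusted p = 0.299) with the 12 libraries and an adjusted p of 0.0239 without O1.

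Csf3, the granulocyte colony-stimulating factor, moved the other way. It measured 0.05, 0.04 and 0 FPKM in wild type with PBS, 280.0, 270.4 and 294 in wild type with LPS, 0.09, 0.13 and 0 in the labelled knockout with PBS, and 11.1, 8.75 and 9.71 in the labelled knockout with LPS. Both PBS groups were near 0, and with LPS every library of the labelled knockout was far below every wild-type library. The interaction was -5.18 (SE 0.39, adjusted p = 0.0002), and -5.87 (adjusted p = 0.00521) by edgeR. Csf2, its counterpart for granulocytes and macrophages, reached 53.8 to 55.9 FPKM in wild type with LPS and 0.82 to 1.29 in the labelled knockout. The PBS groups of Csf2 held 2 and 1 counts, and its interaction of -5.46 (SE 0.57, adjusted p = 0.00135) had an adjusted p of 0.342 by edgeR. DESeq2 gave -4.75 (adjusted p = 0.0473) for Csf2. Osm, the gp130 cytokine oncostatin M, was named after its values were seen because it was well counted with PBS. It measured 1.09, 1.09 and 1.37 FPKM in wild type with PBS, 15.3, 16 and 14.9 in wild type with LPS, 1.66, 1.29 and 1.32 in the labelled knockout with PBS, and 5.26, 5.11 and 5.32 in the labelled knockout with LPS, with no overlap with LPS, and its interaction was -1.78 (SE 0.16, adjusted p = 0.000607). Il10, an anti-inflammatory cytokine, had an interaction of -2.89 (SE 0.62, adjusted p = 0.0488) from 4 and 2 PBS counts, lost when any of 10 single libraries was left out (adjusted p up to 0.117). edgeR gave -2.53 (adjusted p = 0.629).

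Tnf and Il1b, the other early cytokines of the response, were not called. Tnf measured 49.2, 45.8 and 46.5 FPKM in wild type with PBS, 2028, 1940 and 1995 in wild type with LPS, 41.5, 32 and 35.9 in the labelled knockout with PBS, and 1581, 1567 and 1586 in the labelled knockout with LPS, and its interaction was 0.044 (SE 0.13, adjusted p = 0.931), with a 95% interval of -0.26 to 0.34. Il1b rose from at most 0.56 FPKM with PBS to at least 746 FPKM with LPS in all libraries. Its interaction was 0.51 (SE 0.64, adjusted p = 0.813), with a 95% interval of -0.93 to 1.96.

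Chemokines attract leukocytes. Of 19 tested, 3 had a higher interaction (Ccl3, Ccl9 and Cxcl16) and 4 a lower one (Ccl2, Ccl7, Ccl17 and Cxcl11), beside 0.905% and 1.04% of all genes, with a median of -0.18. Without O1, 5 were higher and 4 lower. edgeR called 5 higher, among them Ccl5 and Ccl22, and 1 lower, Ccl17. Ccl2, the monocyte attractant, measured 0.53, 1.31 and 0.67 FPKM in wild type with PBS, 117, 113 and 118 in wild type with LPS, 0, 0 and 0.06 in the labelled knockout with PBS, and 3.93, 3.07 and 3.59 in the labelled knockout with LPS. The labelled knockout was below wild type in both conditions, without overlap, at genotype effects of -2.91 log2 units with PBS and -5.01 with LPS. Its interaction was -2.09 (SE 0.40, adjusted p = 0.0308) by limma and -0.037 (adjusted p = 0.929) by edgeR. The ratio of the genotypes was close in both conditions on the count scale, and only 1 count was found over the 3 libraries labelled knockout with PBS. The call was lost when any of 9 single libraries was left out (adjusted p up to 0.0820). Ccl3, a macrophage inflammatory protein that was named after its values were seen, measured 218, 166 and 168 FPKM in wild type with PBS, 8208, 7955 and 8236 in wild type with LPS, 85.7, 46.1 and 43 in the labelled knockout with PBS, and 7772, 7550 and 7517 in the labelled knockout with LPS. O1 was the highest of its group, and Ccl3 had an interaction of 1.63 (SE 0.32, adjusted p = 0.0356) with O1 and 1.94 without it. Leaving out any library except O1 ended its call (adjusted p up to 0.0910).

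Ccl17, a ligand of CCR4, had an interaction of -2.87 (SE 0.54, adjusted p = 0.0268), and of -2.66 (adjusted p = 0.0107) by edgeR, and it was lost without any of 9 single libraries (adjusted p up to 0.0737). Cxcl11, an interferon-induced CXCR3 ligand, had -1.75 (SE 0.32, adjusted p = 0.0224), with an adjusted p of 0.81 by edgeR, and was lost without any of 4 libraries (adjusted p up to 0.0629). Ccl7, another monocyte attractant, reached 9.52 to 10.3 FPKM in wild type with LPS and 0 to 0.38 in the labelled knockout. Its PBS groups held 1 and 0 counts, so the interaction of -5.22 depends on the offset, and edgeR did not call it.

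**Figure D4:**
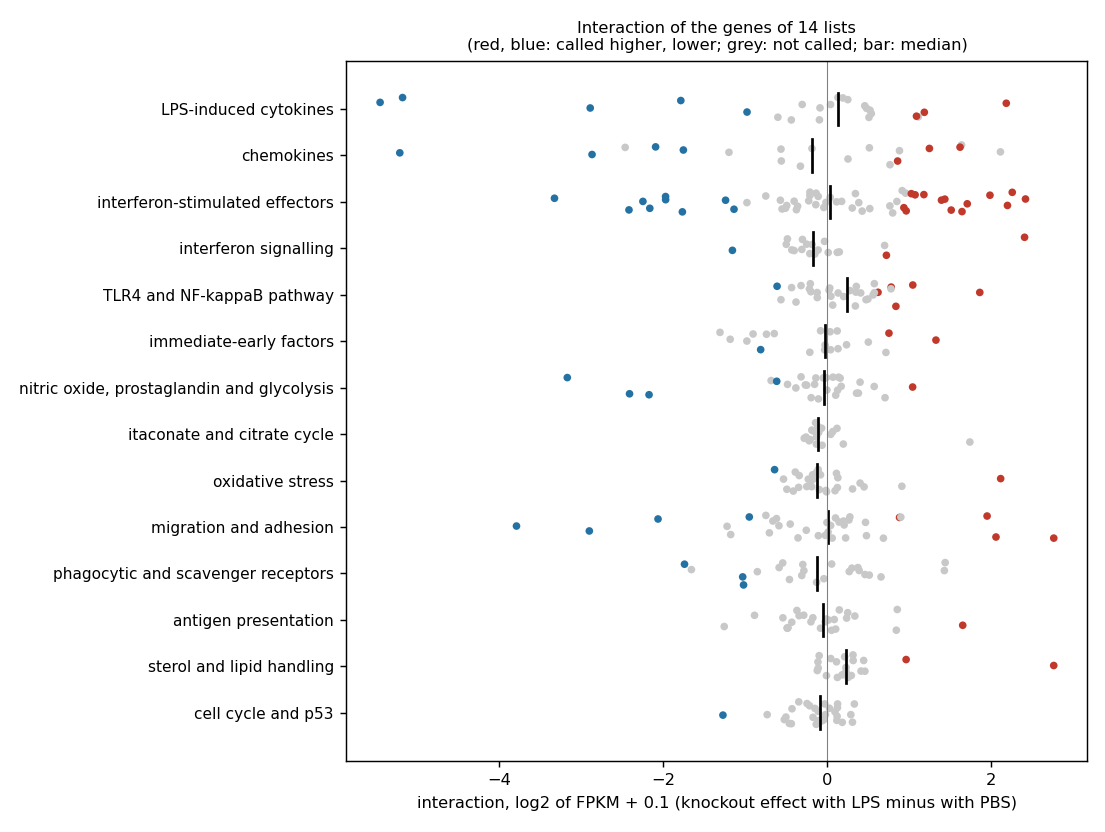
Interaction of the genes of 14 lists (x axis, log2 units of FPKM + 0.1), one point per gene. Red points were called higher, blue points lower and grey points not called, and each bar is the median of a list; red and blue points stand on both sides of 0 among cytokines, chemokines and interferon-stimulated effectors, and the itaconate and citrate cycle list has no called gene.

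Of 32 genes of the TLR4 and NF-kappaB pathway, 5 had a higher interaction and 1 a lower one, beside 0.905% and 1.04% of all genes, with a median of 0.24. Without O1, 7 were higher and 2 lower, and edgeR called 6 and 1. Nfkbiz encodes IkappaB-zeta, a nuclear cofactor needed for Il6 transcription. It measured 1.79, 1.94 and 1.82 FPKM in wild type with PBS, 63.2, 59.4 and 57 in wild type with LPS, 1.77, 1.96 and 2.16 in the labelled knockout with PBS, and 131, 128 and 133 in the labelled knockout with LPS. The PBS groups overlapped, every library of the labelled knockout with LPS exceeded every wild-type one, and the interaction was 1.05 (SE 0.12, adjusted p = 0.00217). Ticam2, which encodes the adaptor TRAM, measured 4.45, 5.38 and 4.58 FPKM in wild type with PBS, 2.18, 2.34 and 2.3 in wild type with LPS, 6, 6.59 and 6.26 in the labelled knockout with PBS, and 5.39, 5.2 and 5.12 in the labelled knockout with LPS. It fell in wild type and its change in the labelled knockout was not called, and its interaction was 0.78 (SE 0.12, adjusted p = 0.0109). Pim1, a kinase gene induced by cytokines, had 0.84 (SE 0.18, adjusted p = 0.0456), lost without any of 10 single libraries (adjusted p up to 0.120). The exception was Zfp36, the mRNA-destabilizing protein tristetraprolin, with an interaction of -0.61.

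Dusp1, the phosphatase that switches off p38 and JNK, belonged to a small group that crossed over. It measured 2.04, 1.61 and 1.98 FPKM in wild type with PBS, 4.67, 4.58 and 4.44 in wild type with LPS, 0.97, 0.98 and 1.12 in the labelled knockout with PBS, and 9.81, 10.6 and 8.51 in the labelled knockout with LPS. The labelled knockout lay below wild type with PBS and above it with LPS, without overlap in either condition, and the interaction was 1.87 (SE 0.16, adjusted p = 0.000421). Myc, the growth-promoting transcription factor, measured 0.47, 0.66 and 0.5 FPKM in wild type with PBS, 48.6, 49.3 and 44.9 in wild type with LPS, 0.34, 0.28 and 0.36 in the labelled knockout with PBS, and 82.3, 80.2 and 76.9 in the labelled knockout with LPS. It crossed in the same direction, with an interaction of 1.33 (SE 0.17, adjusted p = 0.00393), and of 1.52 (adjusted p = 0.000715) by edgeR. Slc7a11, the cystine importer that feeds glutathione synthesis, measured 1.66, 1.48 and 1.54 FPKM in wild type with PBS, 12.5, 12.8 and 13.1 in wild type with LPS, 0.52, 0.78 and 0.86 in the labelled knockout with PBS, and 27.1, 26.9 and 27.8 in the labelled knockout with LPS, and its interaction was 2.12 (SE 0.20, adjusted p = 0.00072). In all, 11 called genes had genotype effects of opposite sign that each passed the threshold, 8 upward and 3 downward. The others are named here after their values were seen.

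Among them, Rhob, a small GTPase of the endosome, went from 1.06 to 1.37 FPKM up to 12.4 to 15.1 FPKM in the labelled knockout and from 2.98 to 3.45 up to 7.98 to 9.03 in wild type. Its interaction was 1.95 (SE 0.17, adjusted p = 0.000381). Mfap3l, at 1.38 (SE 0.25, adjusted p = 0.0209), and Gm34643, at 1.56 (SE 0.28, adjusted p = 0.0198), crossed in the same direction, but each lost its call in some fits without 1 library (7 and 5 of 12, adjusted p up to 0.0603 and 0.0562). edgeR gave 1.49 (adjusted p = 0.00416) and 1.73 (adjusted p = 0.00598). Pald1, a phosphatase-domain protein, crossed downward. It measured 7.08, 6.73 and 7.15 FPKM in wild type with PBS, 1.91, 1.62 and 2.11 in wild type with LPS, 12.9, 11.5 and 12.5 in the labelled knockout with PBS, and 1.04, 0.75 and 1.28 in the labelled knockout with LPS, and its interaction was -1.64 (SE 0.23, adjusted p = 0.00656). Rnase4, a secreted ribonuclease, did the same with -1.33 (SE 0.20, adjusted p = 0.00982). The remaining 3, Omg, Gm28536 and a gene with no symbol, had at most 50 counts in each group.

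Immediate-early transcription factors are induced without new protein synthesis. Of 20 tested, limma called 2 higher (Myc and Klf6) and 1 lower (Btg2), beside 0.905% and 1.04% of all genes. Without O1 it called 3 lower, with Egr1 and Klf4, and edgeR called 4 lower, with Jun as well. Klf6 was below wild type in both conditions, at 5.13 to 6.04 FPKM with PBS and 20.9 to 23.1 with LPS against 15.1 to 16.1 and 34.9 to 37.7 in wild type. Its interaction was 0.76 (SE 0.12, adjusted p = 0.0103). Btg2, an antiproliferative gene, had -0.81 (SE 0.15, adjusted p = 0.0218), lost without any of 6 single libraries (adjusted p up to 0.0670).

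Acod1, which the study calls IRG1, encodes the enzyme that makes itaconate from cis-aconitate. It measured 1.94, 2.86 and 3.48 FPKM in wild type with PBS, 2211, 2201 and 2188 in wild type with LPS, 0.53, 0.55 and 1.17 in the labelled knockout with PBS, and 2153, 2114 and 2122 in the labelled knockout with LPS. The labelled knockout was lower with PBS without overlap, and with LPS the genotype effect was -0.047 log2 units. The interaction was 1.75 (SE 0.38, adjusted p = 0.0552), outside the threshold by limma, and 1.86 (adjusted p = 0.00343) by edgeR, within it. In the list of itaconate and citrate cycle genes, limma called none of 20 in either direction with or without O1. Over all genes it called 1.95% with O1 and 3.41% without it. At an unadjusted p under 0.05 by limma, 1 was higher and none lower, beside 4.53% and 5.64% of all genes. Of the list, edgeR called Acod1 alone. Aifm1, a mitochondrial flavoprotein that the study followed, measured 33.2, 32.6 and 32.8 FPKM in wild type with PBS, 25.5, 25.1 and 23.8 in wild type with LPS, 32.7, 30.6 and 28.1 in the labelled knockout with PBS, and 20.2, 23.4 and 22.6 in the labelled knockout with LPS, and its interaction of -0.059 (SE 0.12, adjusted p = 0.882) had a 95% interval of -0.33 to 0.21.

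Genes of nitric oxide, prostaglandin and glycolytic metabolism numbered 30, of which 1 was higher (Egln3) and 4 lower, beside 0.905% and 1.04% of all genes. Without O1, 1 was higher and 5 lower, and edgeR called Hk1 alone, as lower. Nos2, the inducible nitric oxide synthase, measured 0.02, 0.01 and 0 FPKM in wild type with PBS, 22.7, 23.5 and 23.7 in wild type with LPS, 0, 0 and 0.06 in the labelled knockout with PBS, and 3.91, 5.28 and 4.69 in the labelled knockout with LPS. PBS levels were near 0 in both genotypes and LPS levels did not overlap, at a genotype effect of -2.32 log2 units. Its interaction was -2.41 (SE 0.26, adjusted p = 0.00157). From 2 and 4 PBS counts, edgeR gave -3.08 (adjusted p = 0.305) with 12 libraries and an adjusted p of 0.0272 without O1. Hpgd, which inactivates prostaglandins, had a different form. It measured 1.56, 1.55 and 1.49 FPKM in wild type with PBS, 0.09, 0 and 0.08 in wild type with LPS, 132, 121 and 128 in the labelled knockout with PBS, and 1.38, 1.53 and 0.82 in the labelled knockout with LPS, so it was high in the labelled knockout with PBS and fell in both genotypes, and its interaction of -3.17 (SE 0.37, adjusted p = 0.00223) had an adjusted p of 0.29 by edgeR. Hk1, a hexokinase, had -0.61 (SE 0.11, adjusted p = 0.0191), lost without any of 6 single libraries (adjusted p up to 0.0619). Egln3, a prolyl hydroxylase of hypoxia-inducible factors, had 1.05 (SE 0.20, adjusted p = 0.0268) by limma but -1.26 (adjusted p = 0.729) by edgeR, and had 2 counts over the 3 libraries labelled knockout with PBS. Among 28 oxidative stress genes, 1 was higher (Slc7a11) and 1 lower by both tests, beside 0.905% and 1.04% of all genes, and without O1 limma called 2 higher and none lower.

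Migration and adhesion genes numbered 35 tested, with 4 higher (Timp1, Itgal, Spp1 and Cd44) and 4 lower (Mmp9, Ccr1, Plau and Flt1), beside 0.905% and 1.04% of all genes. Without O1, 5 were higher and 6 lower. edgeR called all 4 of the higher genes and 2 of the lower. Timp1, an inhibitor of metalloproteinases, measured 9.7, 9.98 and 9.17 FPKM in wild type with PBS, 79.1, 80.4 and 82.5 in wild type with LPS, 0.07, 0 and 0.08 in the labelled knockout with PBS, and 6.68, 9.74 and 8.27 in the labelled knockout with LPS. It had 2 counts over the 3 libraries labelled knockout with PBS and stood -3.29 log2 units from wild type with LPS, with an interaction of 2.77 (SE 0.30, adjusted p = 0.00157) and of 4.08 (adjusted p = 0.000276) by edgeR. Spp1, the cytokine osteopontin, was named after its values were seen. It measured 962, 847 and 803 FPKM in wild type with PBS, 3003, 2929 and 2957 in wild type with LPS, 81.3, 56.6 and 56.7 in the labelled knockout with PBS, and 881, 781 and 885 in the labelled knockout with LPS, a deficit in both conditions that was smaller with LPS, and its interaction was 1.96 (SE 0.20, adjusted p = 0.00119). Itgal, the alpha chain of the integrin LFA-1, started lower in the labelled knockout and overlapped wild type with LPS. It had 2.06 (SE 0.31, adjusted p = 0.00903).

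Plau, which encodes urokinase and is named after its values were seen, showed the reverse. It measured 83.5, 71.2 and 68.3 FPKM in wild type with PBS, 24.5, 21.9 and 23.7 in wild type with LPS, 68, 61.6 and 60 in the labelled knockout with PBS, and 3.99, 4.81 and 5.35 in the labelled knockout with LPS. The PBS groups nearly touched and did not differ past the threshold, the LPS groups were far apart, and the interaction was -2.06 (SE 0.17, adjusted p = 0.000368). Mmp9, a gelatinase, reached 8.68 to 10.1 FPKM with LPS in wild type and 0.53 to 0.56 in the labelled knockout. Its interaction of -3.79 (SE 0.16, adjusted p = 6.54e-06) had an adjusted p of 0.0933 by edgeR from 4 and 3 PBS counts. By DESeq2 it was -3.56 (adjusted p = 0.0319). Ccr1, a receptor for Ccl3, had -2.90 (SE 0.42, adjusted p = 0.00728), and -4.09 (adjusted p = 0.025) by edgeR.

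Phagocytic and scavenger receptors had 3 lower genes and none higher among 23, beside 1.04% and 0.905% of all genes. By edgeR 1 was higher and 3 lower, beside 1.34% and 1.89% of all genes it tested. Without O1 limma called 1 higher and 3 lower, beside 1.28% and 2.12% of all genes. At an unadjusted p under 0.05, 7 of the 23 were higher and 8 lower by limma, beside 4.53% and 5.64% of all genes. Fcgr1, the high-affinity IgG receptor, measured 19.4, 18 and 17.4 FPKM in wild type with PBS, 20.4, 23.4 and 23.1 in wild type with LPS, 26, 21.4 and 19 in the labelled knockout with PBS, and 7.37, 8.59 and 7.92 in the labelled knockout with LPS. It overlapped between genotypes with PBS, changed by 0.28 log2 units with LPS in wild type, which was not called, and fell below all other groups in the labelled knockout with LPS. Its interaction was -1.74 (SE 0.17, adjusted p = 0.00101). Trem2, a lipid-sensing receptor, fell in both genotypes and further in the labelled knockout, from 50.4 to 73.1 FPKM to 11.3 to 12.2 FPKM. The interaction of Trem2 was -1.02 (SE 0.18, adjusted p = 0.0202), lost without any of 7 single libraries (adjusted p up to 0.0609). Clec7a, the beta-glucan receptor dectin-1, was the third (-1.03, not called without O1).

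Of 26 antigen presentation genes, limma called 1 higher, Cd40, and none lower, beside 0.905% and 1.04% of all genes. Without O1 it also called Cd274 lower, and edgeR called Cd80 higher and Cd274 lower besides Cd40. This costimulatory receptor measured 0.59, 0.91 and 0.74 FPKM in wild type with PBS, 65.8, 65.1 and 64.3 in wild type with LPS, 0.18, 0.18 and 0.14 in the labelled knockout with PBS, and 65.3, 65.8 and 64.8 in the labelled knockout with LPS. It started below wild type without overlap, its groups overlapped with LPS, and its interaction was 1.66 (SE 0.18, adjusted p = 0.00157), and 2.15 (adjusted p = 7.38e-05) by edgeR. Of 21 genes of sterol and lipid handling, Lpl and Ch25h were higher and none lower with and without O1, beside 0.905% and 1.04% of all genes. None was lower by edgeR, or at an unadjusted p under 0.05 by limma. Lpl, lipoprotein lipase, measured 105, 95.5 and 102 FPKM in wild type with PBS, 156, 154 and 152 in wild type with LPS, 93.3, 103 and 107 in the labelled knockout with PBS, and 311, 296 and 299 in the labelled knockout with LPS. Its PBS groups overlapped and with LPS it was higher by 0.97 log2 units in the labelled knockout, an interaction of 0.97 (SE 0.11, adjusted p = 0.00181). Ch25h, which makes 25-hydroxycholesterol, had no count with PBS and 2.77 (SE 0.49, adjusted p = 0.0199), lost without any of 5 single libraries (adjusted p up to 0.0544) and not called by edgeR. Of 30 genes of the cell cycle and p53 list, limma called 1 lower, Ccnd1 or cyclin D1, and none higher, beside 1.04% and 0.905% of all genes. The call held without O1, and edgeR also called E2f1 lower, beside 1.89% of all genes it tested. At an unadjusted p under 0.05, 1 of the 30 was higher and 9 lower, beside 4.53% and 5.64% of all genes. It measured 113, 117 and 112 FPKM in wild type with PBS, 37.1, 40.8 and 38.6 in wild type with LPS, 71.3, 87.2 and 91.4 in the labelled knockout with PBS, and 11.6, 12 and 11.4 in the labelled knockout with LPS, falling in both genotypes and further in the labelled knockout, with an interaction of -1.27 (SE 0.14, adjusted p = 0.00157).

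The 10 highest and 10 lowest interactions among the 361 genes that met the naming rule were mostly genes with almost no counts in one genotype or with PBS. Tox2, Chst1 and Cnnm1 had interactions of 3.97, 3.42 and 2.98. They fell with LPS in wild type from 3.21 to 3.62, 9.08 to 11.5 and 1.10 to 1.16 FPKM to at most 0.58 FPKM and were at 0.16 FPKM or less in the labelled knockout in both conditions. edgeR called none of these 3. DESeq2 called Cnnm1, at 5.40 (adjusted p = 0.0377), and neither Tox2 nor Chst1. Itgb8, Prdm1, Tnc, Gm2396 and Gm6445 had interactions of 3.55, 3.44, 3.26, 3.14 and 2.96. All 5 were at or below 0.13 FPKM in the PBS libraries and rose mainly in the labelled knockout. Tnc, the matrix protein tenascin-C, was the most abundant of them, standing 3.49 log2 units above wild type with LPS. edgeR with 12 libraries called none of these 5, and called Itgb8 without O1 (adjusted p = 0.00801). DESeq2 with 12 libraries called Itgb8 alone of them, at 8.18 (adjusted p = 0.000248).

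At the other end, P2ry12 and P2ry13, neighbouring receptors for ADP, had interactions of -3.65 and -3.59. P2ry12 measured 0.18, 0.19 and 0.18 FPKM in wild type with PBS, 0, 0 and 0 in wild type with LPS, 5.93, 8.04 and 6.92 in the labelled knockout with PBS, and 0.07, 0.18 and 0.06 in the labelled knockout with LPS. Each was high in the labelled knockout with PBS and fell there to near 0 with LPS. In wild type P2ry12 fell too, and P2ry13 was near 0 with PBS already. The edgeR value for P2ry12 was -0.098 (adjusted p = 0.82). Upp1, uridine phosphorylase, and Il36a, an interleukin-1 family cytokine, both had -3.50. They rose with LPS in wild type (to 3.26 to 3.39 and 2.93 to 3.77 FPKM) and stayed at 0.28 FPKM or less in the labelled knockout. edgeR called neither, nor P2ry13. Gm12250, an interferon-induced GTPase gene, had -3.47 (SE 0.60, adjusted p = 0.0171), lost without the second wild-type library with LPS (adjusted p = 0.0505). edgeR gave -4.43 (adjusted p = 0.0351), and an adjusted p of 0.0922 without O1. Gm15433 was absent from wild type with PBS, rose there to 2.30 to 4.25 FPKM with LPS, and had no called change in the labelled knockout. It had -3.99 (SE 0.50, adjusted p = 0.00345), and -7.57 (adjusted p = 0.00393) by edgeR.

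Genes with over 50 counts in both PBS groups that both tests called with and without O1 are less affected by the offset, and the 8 largest in each direction were taken after the values were seen. Besides those above, the upward ones included Sntb2, a syntrophin, at 2.41, 2.42 and 2.27 FPKM in wild type with PBS, 3.38, 2.93 and 3.02 in wild type with LPS, 0.1, 0.18 and 0.21 in the labelled knockout with PBS, and 1.43, 1.09 and 1.27 in the labelled knockout with LPS, with an interaction of 2.01 (SE 0.23, adjusted p = 0.00181). Themis2, a signalling adaptor of macrophages and B cells, led downward by adjusted p. It measured 18.6, 19 and 15.3 FPKM in wild type with PBS, 24, 26.1 and 25.4 in wild type with LPS, 23.2, 25.6 and 25.4 in the labelled knockout with PBS, and 9.01, 10.2 and 9.39 in the labelled knockout with LPS, falling in the labelled knockout with no called change in wild type, and its interaction was -1.89 (SE 0.14, adjusted p = 0.00019). St6gal1, a sialyltransferase, started 2.56 log2 units higher in the labelled knockout and fell to 0.23 FPKM or less in both genotypes, with -2.20 (SE 0.36, adjusted p = 0.0135). Rrad, a Ras-related GTPase, fell further in the labelled knockout (-2.47). Tnfrsf13b, the receptor TACI, rose with LPS in wild type and fell in the labelled knockout (-1.88). Sh2d5 rose in wild type alone (-1.89). Of the transcripts Gm9260 and Gm17709, the first rose in wild type and, without O1 only, in the labelled knockout, and the second rose less in the labelled knockout (-2.35 and -1.85).

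O1 moved the number of calls more than any other library. Leaving out one of the other 11 gave 400 to 494 called genes, and leaving out O1 gave 904. Without O1 the lower genes grew from 279 to 563, and 236 of the 563 were above wild type with PBS and not called with LPS, beside 57 of the 279 with it. limma array weights gave 830 calls. Of the 521 genes, 17 were not called without O1. Why O1 stands apart was not tested.

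Bone marrow-derived macrophages (BMDMs) of wild-type and Olfml3-/- mice, under the same treatments and with 3 libraries per group, gave an interaction for 786 of 26973 genes (2.91%), 1.89% higher and 1.02% lower. They share no library with RAW264.7. Olfml3 averaged 0.597 and 0.247 FPKM in wild-type BMDMs with PBS and LPS, and 0.017 and 0.0033 FPKM in Olfml3-/- BMDMs. Olfml3 RNA was thus below wild type there, and above wild type in the labelled knockout of RAW264.7. Of the 490 RAW264.7 genes that were also tested there, 87 were called in BMDMs (17.8% of the 490 and 11.1% of the 786), 51 in the same and 36 in the opposite direction. In BMDMs 65.0% of calls were higher, and 46.8% of 714 calls with median-ratio scaling, so the split there moved with the scaling. Irf7, Rtp4, Isg15 and Ifitm3 had higher interactions in both (2.90, 3.00, 2.53 and 1.66 in BMDMs). Of the interferon-stimulated effectors, limma called 45 higher and 1 lower in BMDMs, beside 14 and 9 in RAW264.7. On counts, edgeR called 19 higher and 3 lower in RAW264.7. Csf3, Csf2, Osm and Rsad2 had lower interactions in RAW264.7 and higher ones in BMDMs by limma (2.69, 3.12, 1.28 and 1.89). In BMDMs, Csf3 and Csf2 averaged 2.08 and 2.31 FPKM in Olfml3-/- cells with LPS and at most 0.28 FPKM elsewhere. Their values there therefore depend on the offset. In RAW264.7, edgeR called neither Csf2 nor Rsad2 (adjusted p = 0.342 and 0.859). DESeq2 called Csf2 there (adjusted p = 0.0473) and not Rsad2 (adjusted p = 0.869). Il6, Nfkbiz, Dusp1, Fcgr1 and Plau were called in RAW264.7 and not in BMDMs, at 0.67, 0.17, 0.0077, 0.51 and -0.069 there. Of these, Fcgr1 in BMDMs had an adjusted p of 0.011 by limma and missed only the 1.5-fold threshold. Its direction there was opposite to that in RAW264.7. The difference between the 2 cell types was not itself tested.

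**Figure D5:**
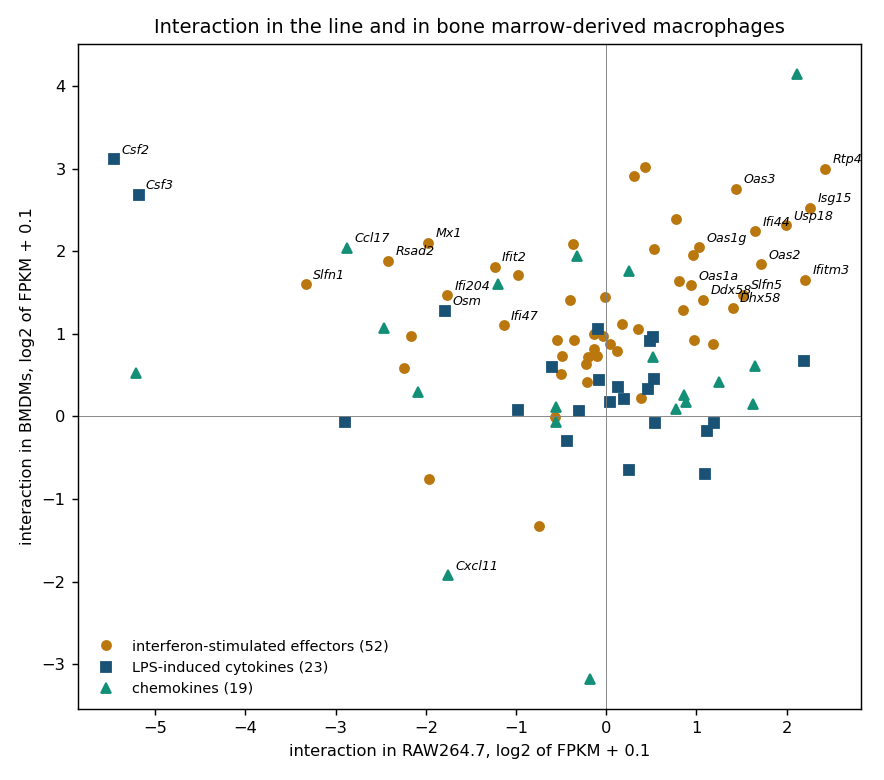
Interaction in RAW264.7 (x axis) and in BMDMs (y axis), both in log2 units of FPKM + 0.1, for interferon-stimulated effectors (circles), cytokines (squares) and chemokines (triangles). Rtp4, Isg15, Usp18 and Oas3 lie above 0 on both axes, and Csf2, Csf3, Rsad2 and Mx1 lie below 0 in RAW264.7 and above 0 in BMDMs. Of the latter, edgeR did not call Csf2, Rsad2 or Mx1 in RAW264.7, though DESeq2 called Csf2.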

How the data were processed

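RNA was measured by poly(A) RNA sequencing. For each cell type the authors deposited a table of raw counts per gene and of FPKM values with 1 pair of columns for each library. No aligner or counter is named in the labels or methods. Processing notes of the submitters name mm10, but of 20990 symbols only 1.37% of gene starts in the tables lay within 20 bases of a GRCm38 start, so the tables' coordinates were not joined with the reference. FPKM recomputed from the deposited counts and exon lengths was within 1% for 99.9% of 122116 RAW264.7 values. Gene lists, members and comparisons were chosen with earlier results of these data known.

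The interaction was fitted with limma 3.58.1 in R 4.3.3 on log2(FPKM + 0.1), with 4 group means and no trend, over genes above 0 in at least 1 library. Calls required a Benjamini-Hochberg adjusted p under 0.05 and 1.5-fold. Adjusted p-values marked edgeR are from its quasi-likelihood test (4.0.16) on the deposited counts, and DESeq2 1.42.0 was an alternative. Scripts were tested on simulated data. Intervals are limma's. Other alternatives were the pseudocount, filters, scaling, array weights, the replicate block and leaving out each library.

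Genes were named by rule: called with and without O1 in the same direction, a group mean of at least 1 FPKM, at least 50 counts and a symbol. Of these, the 10 highest and 10 lowest were taken, and up to 4 of each list. Olfml3, Ccl2, Acod1, Aifm1, Il6, Tnf, Il1b and Nos2 were always named. Other genes are said to be named after their values were seen, or are given as the called members of a list. Promoters and their sequences are from RefSeq on GRCm38.p6, and 49 of 75 named genes had one. Some members of the gene lists are not reported here.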

Additional observations from a re-analysis of the deposited data

Results flagged for a closer look

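The LPS response differed between genotypes, by the test of the difference itself, for 521 genes with 12 libraries and 904 without O1. The interactions of the 71 named genes that were called are gathered here in log2 units of FPKM + 0.1, and no explanation for them was tested.

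Under LPS-induced cytokines stood Csf2 at -5.46, Csf3 at -5.18, Il10 at -2.89, Il6 at 2.19 and Osm at -1.78. Under TLR4 and NF-kappaB pathway stood Dusp1 at 1.87, Nfkbiz at 1.05, Pim1 at 0.84 and Ticam2 at 0.78. Under antigen presentation stood Cd40 at 1.66. Under cell cycle and p53 stood Ccnd1 at -1.27. Under chemokines stood Ccl7 at -5.22, Ccl17 at -2.87, Ccl2 at -2.09, Cxcl11 at -1.75 and Ccl3 at 1.63. Under immediate-early factors stood Myc at 1.33, Btg2 at -0.81 and Klf6 at 0.76. Under interferon signalling stood Irf7 at 2.41, Irf1 at -1.15 and Irf9 at 0.73. Under interferon-stimulated effectors stood Slfn1 at -3.33, Rtp4 at 2.42, Rsad2 at -2.42, Isg15 at 2.26 and Ifitm3 at 2.20. Under migration and adhesion stood Mmp9 at -3.79, Ccr1 at -2.90, Timp1 at 2.77, Itgal at 2.06, Spp1 at 1.96 and Plau at -2.06. Under nitric oxide, prostaglandin and glycolysis stood Hpgd at -3.17, Nos2 at -2.41, Egln3 at 1.05 and Hk1 at -0.61. Outside the lists, called genes included Gm10964 at 4.23, Olfml3 at 4.13, Tox2 at 3.97, Itgb8 at 3.55, Prdm1 at 3.44, Chst1 at 3.42, Tnc at 3.26, Gm2396 at 3.14, Cnnm1 at 2.98, Gm6445 at 2.96, Gm15433 at -3.99 and P2ry12 at -3.65. Outside the lists, called genes included P2ry13 at -3.59, Upp1 at -3.50, Il36a at -3.50, Gm12250 at -3.47, Sntb2 at 2.01, Rhob at 1.95, Rrad at -2.47, Gm9260 at -2.35, St6gal1 at -2.20, Sh2d5 at -1.89, Themis2 at -1.89 and Tnfrsf13b at -1.88. Outside the lists, called genes included Gm17709 at -1.85, Pald1 at -1.64, Rnase4 at -1.33, Mfap3l at 1.38 and Gm34643 at 1.56. Under oxidative stress stood Slc7a11 at 2.12. Under phagocytic and scavenger receptors stood Fcgr1 at -1.74 and Trem2 at -1.02. Under sterol and lipid handling stood Ch25h at 2.77 and Lpl at 0.97. Of these, Gm10964 was called by limma and not by edgeR or DESeq2.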

How the results depend on the processing

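With 12 libraries, 521 genes were called. The count was 353 and 513 with pseudocounts of 0.01 and 1, 437 with TPM scaling, 523 with median-ratio scaling, 686 with quantile normalization, 441 by edgeR and 539 by DESeq2. The split by direction moved with the scaling. It was 242 higher and 279 lower in the main fit, 231 and 206 with TPM scaling, and 256 and 267 with median-ratio scaling. Without O1, TPM scaling gave 329 higher and 667 lower. Array weights gave 830, and edgeR without the first library labelled knockout with PBS (O1) gave 888. Leaving out 1 library gave 400 to 904, the highest without O1. Without O1 the further omission of 1 library gave 760 to 1173, and in BMDMs 719 to 822. Of 71 named genes called, 56 kept the call in every fit without 1 library, and 30 kept direction and call under every setting run.

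Same-numbered RAW264.7 libraries showed little shared deviation (r of -0.065 to 0.060 over 18 pairs). In BMDMs r averaged 0.030 (-0.033 to 0.089) for same-numbered pairs and -0.015 (-0.089 to 0.042) for the others. These values cannot show whether the numbers mark a shared culture or batch. With the replicate number as a block, 367 genes were called, 637 without O1 and 683 in BMDMs.

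Signs turned for few named genes, and the cause was not tested. Ccl2 was 0.32 with a pseudocount of 0.01 and 0.40 by DESeq2. Chst1 was -0.36 by edgeR with and without its filter. Egln3 was -1.26 by edgeR, -1.25 without its filter, -0.088 by DESeq2 and -1.75 by edgeR without O1. By edgeR without O1, Cxcl11 was 0.15 and Aifm1 0.0080. Aifm1 was 0.0033 without the first library labelled knockout with LPS, and ranged down to -0.12 over the fits without 1 library. Tnf ranged from -0.046 without the second library labelled knockout with PBS to 0.14 without the first. Of the 240 called genes with 50 or fewer counts in a PBS group, edgeR called 32. Genes that edgeR did not test count there as not called.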
